A study of Mus musculus with 7 samples.

Results

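The genes described here encode the potassium, sodium and voltage-gated calcium channels of the mouse, taken by symbol: the Kcn, Scn and Cacn families, with 92 potassium, 14 sodium and 26 calcium channel genes. They are 132 of the 50600 entries of the bulk table, and 94 of them are also listed in a single-cell table. The symbol rule takes pore-forming subunits together with auxiliary subunits and with proteins that have other roles. The Cacng genes that were high in either group encode subunits of AMPA-type glutamate receptors rather than of calcium channels. Kcnip3, counted here among the auxiliary potassium subunits, encodes a calcium-binding protein that also binds DNA. Kcng, Kcns, Kcnv and Kcnf genes encode pore subunits that make no channel by themselves. The families are therefore described by the role of each subunit.

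The bulk libraries came from 4 separate primary cultures of neural stem and progenitor cells (NSPCs) of the dentate gyrus (DG) of C57Bl6J mice aged 6 to 8 weeks, and from 2 whole DG of mice aged 7 to 9 weeks. The cultures F1 and F2 were female and M1 and M2 male; of the whole DG libraries, F1 was female and M2 male. The cells grew in Neurobasal A with B27, EGF at 20 ng/ml and FGF2 at 20 ng/ml, and were used at passages 6 to 15. A single-cell library pooled cells of 3 such cultures, female and male, from mice aged 6 to 9 weeks. Culture libraries were made with the SMART-Seq HT kit and whole DG libraries with NEBNext Ultra II Directional. The protocols name an RNA integrity number of 10 for the cultures and 8 for whole DG. The kit, the RNA integrity and the group therefore cannot be told apart in any difference below. The DG is the part of the hippocampus where granule neurons are still born in the adult. A whole DG sample holds neurons, glia and vessels, and a culture holds cells grown out of it. Cultures are labelled as separate primaries, and the error behind each p-value is the variation among 4 of these and among 2 tissue samples.

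Neurons fire through the joint work of these families. Voltage-gated sodium channels drive the upstroke of the action potential, voltage-gated potassium channels end it, and calcium channels couple it to transmitter release and gene expression. Inward rectifier and 2-pore potassium channels set the resting potential, and are the potassium channels best known from glia and neural progenitors. Auxiliary subunits carry the pores to the membrane and tune their gating.

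Total gene counts were 9917697 to 11747408 in the cultures and 16676618 and 17351636 in whole DG. Levels are given as CPM, counts per 1000000 after scaling with TMM factors. Of 12 markers of granule neurons and synapses, 12 were lower in the cultures, and their summed level was 765 to 949 CPM against 15842 to 16361 CPM in whole DG. Most of the culture sum came from Map2, at 818 CPM, while Slc17a7 and Ddn, which define glutamatergic neurons and their dendrites, reached at most 0.191 and 0.173 CPM in any culture. Interneuron markers summed to 5.04 to 7.61 CPM against 724 to 776 CPM, with Sst and Slc32a1 at 0 counts in every culture, and myelin markers to 0.607 to 3.82 CPM against 1135 to 1411 CPM. Microglial markers summed to 38.3 to 58.4 CPM against 309 to 316 CPM, and endothelial markers to 0.780 to 5.21 CPM against 82.9 to 87.5 CPM. Astrocyte markers summed to 351 to 1190.0 CPM against 3040.0 to 3577 CPM, with 4 lower, among them Slc1a2, Aqp4 and Gjb6, Aldh1l1 higher at 288 against 49.2 CPM, and Aldoc not called. The share of these cells in each result was not tested. In these bulk samples fewer cells of a type and less RNA per cell cannot be told apart. Of 14 markers of NSPCs, 8 were higher in the cultures, among them the intermediate filament gene Nes at 1216 CPM against 9.74, and 6 were lower, among them Gfap, Hopx and Sox2.

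Most channel genes were far lower in the cultures. Of 132, 109 passed the filter on low counts and were tested, and 95 of these (87.2%) were lower in the cultures than in whole DG, where 41.7% of all 18088 genes tested were lower. A further 8 (7.34%) were higher, against 35.6% of all genes tested, and 6 were not called (edgeR quasi-likelihood test over all genes, Benjamini-Hochberg adjusted p below 0.05). Without whole DG M2 the count of higher genes was 5. At least 8-fold lower were 73 (67%), against 20.7% of all genes. The median log2 difference, cultures minus whole DG, was -5.20 over the tested channel genes and -0.13 over all genes tested. Together the 132 genes summed to 915 ± 170.3 CPM (SD, n = 4) in the cultures and 10403 ± 109.8 CPM (SD, n = 2) in whole DG. They took 0.0748% to 0.117% of the counts of a culture and 0.974% and 0.978% of those of a whole DG. In 101 genes every culture lay below both whole DG libraries, in 11 every culture lay above, and in 20 the groups overlapped. Among the 109 tested, every culture lay below in 96 (88.1%) and above in 8 (7.34%), against 45% and 38.6% of all genes tested.

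Of the genes not tested, 6 had 0 counts in all 6 libraries. In the cultures 17 genes had 0 counts and in whole DG 9 did. By level, 19 channel genes averaged 10 CPM or more in the cultures and 80 did so in whole DG. Potassium channel genes made up 75 of the genes tested, with 64 lower, 6 higher and 5 not called. For sodium channels 10 of 11 were lower and 1 was higher, and for calcium channels 21 of 23 were lower, 1 was higher and 1 was not called. The plot by subunit group shows the fall in all 11 groups.

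**Figure D1:**
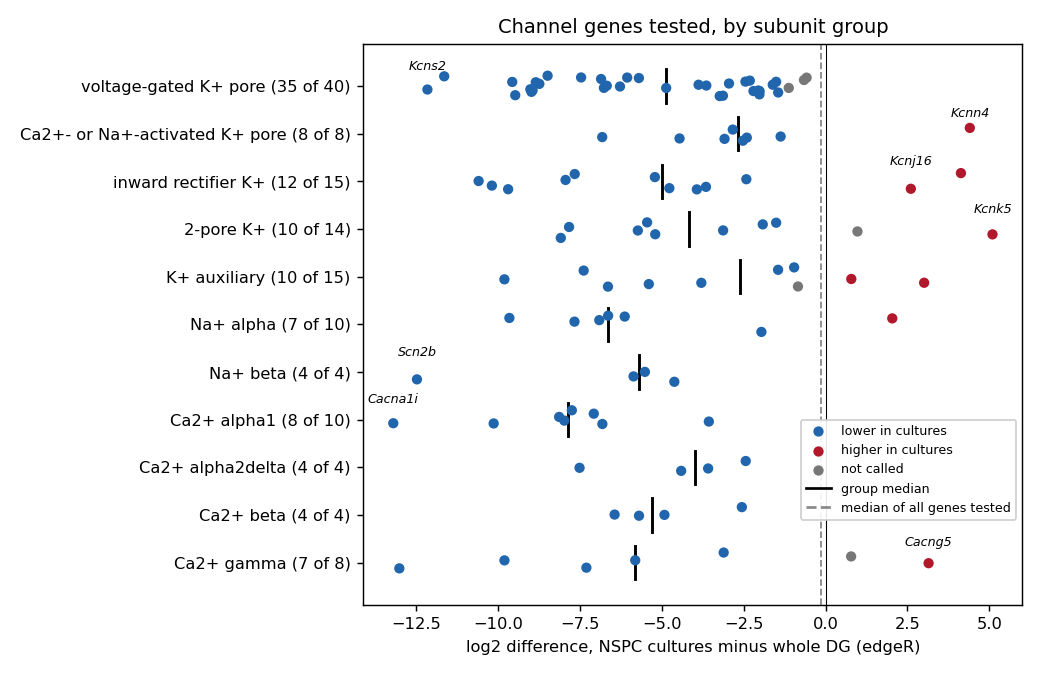
Log2 difference of each tested channel gene, NSPC cultures minus whole DG, from the edgeR fit, by subunit group, with the number tested of the number in the group. Points are genes, black bars are group medians and the dashed line is the median of all genes tested; every group median lies left of the dashed line, and the fitted differences of genes with 0 counts in the cultures, such as Cacna1i, depend on the prior count of the fit.

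The promoters of a few genes are shown here, most because they belong to the clearest members on both sides and Kcnh6 for its motifs. They are RefSeq windows on GRCm38.p6, the 250 bases upstream of the start, 5′ to 3′ along the gene. Kcnj16 and Kcnk5 were higher in the cultures, Scn2b was nearly absent from them, and Kcnh6 is the channel gene whose window holds both parts of the element bound by REST, a repressor of neuronal genes. Capitals mark the left and right parts of the REST element, TTCAGCACC and GGACAGC, the GC box GGGCGG and the TATA box TATAAA, searched on both strands.
Kcnj16 (chr11:110967783-110968032, plus strand): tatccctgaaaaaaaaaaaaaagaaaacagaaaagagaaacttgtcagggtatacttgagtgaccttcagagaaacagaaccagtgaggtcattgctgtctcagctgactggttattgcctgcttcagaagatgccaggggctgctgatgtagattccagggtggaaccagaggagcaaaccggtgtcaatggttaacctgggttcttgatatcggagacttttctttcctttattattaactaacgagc
Kcnk5 (chr14:20181783-20182032, minus strand): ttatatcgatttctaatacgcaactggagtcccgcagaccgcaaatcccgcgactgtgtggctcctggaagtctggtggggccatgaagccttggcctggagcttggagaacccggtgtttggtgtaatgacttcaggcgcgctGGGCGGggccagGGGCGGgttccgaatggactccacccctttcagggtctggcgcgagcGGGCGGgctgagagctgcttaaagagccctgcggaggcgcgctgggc
Scn2b (chr9:45117626-45117875, plus strand): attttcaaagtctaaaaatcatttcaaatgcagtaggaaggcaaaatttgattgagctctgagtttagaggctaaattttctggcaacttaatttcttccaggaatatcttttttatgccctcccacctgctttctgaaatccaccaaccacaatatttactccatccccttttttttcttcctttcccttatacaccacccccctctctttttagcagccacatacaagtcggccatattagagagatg
Kcnh6 (chr11:106007898-106008147, plus strand): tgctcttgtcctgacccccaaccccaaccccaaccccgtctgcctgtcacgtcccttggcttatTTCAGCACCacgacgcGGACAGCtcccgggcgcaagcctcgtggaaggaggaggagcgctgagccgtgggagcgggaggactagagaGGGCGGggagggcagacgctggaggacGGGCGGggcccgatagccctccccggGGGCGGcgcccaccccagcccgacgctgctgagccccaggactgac

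The Kcnj16 and Scn2b windows hold none of these motifs and few CpG pairs, with observed over expected CpG of 0.205 and 0.200 over 300 bases, while that of Kcnk5 was 0.878. A start was listed for 97 channel genes, 78 of them tested, and for 11807 of all genes tested. In windows of 300 bases (250 before and 50 after the start) the median observed over expected CpG was 0.532 in the tested channel genes and 0.743 in all genes tested. The GC box was present in 52.6% of the channel windows and 62.2% of all, the TATA box in 3.85% and 7.19%. The right part of the REST element was in 10.3% of the channel windows and 7.81% of all, and the left part in 1 of 78 and in 0.407% of all. In the 66 windows of channel genes lower in the cultures, the right part was in 5 (7.58%) and the left part in 0. Rest itself averaged 34.5 ± 3.03 CPM (SD, n = 4) in the cultures and 4.61 CPM in whole DG, a log2 difference of 2.90, adjusted p = 3.06e-06 with edgeR. Kcnh6, with both parts, was low in both groups at 0.743 and 1.63 CPM and was not called. A motif match is a description of letters, and binding was not measured.

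Sodium channel pores were low in the cultures. The 10 alpha subunit genes summed to 14.3 ± 1.95 CPM (SD, n = 4) in the cultures and 859 ± 48.8 CPM (SD, n = 2) in whole DG, and 6 of the 7 tested were lower. Scn8a, the alpha subunit of the axon initial segment and nodes, was at 4.46, 6.24, 4.59 and 4.68 CPM in F1, F2, M1 and M2 and at 351 CPM in both whole DG libraries. Its log2 difference was -6.13 ± 0.16 (SE), adjusted p = 6.67e-08 with edgeR. Scn2a, the other main alpha subunit of forebrain axons, was at 3.88, 2.51, 3.63 and 2.83 CPM in the cultures and at 345 and 297 CPM in whole DG. Both pores were low in every culture and neither overlapped the tissue. Scn3a and Scn1a, known from the embryonic brain and from interneurons, were at most 0.293 and 0.780 CPM in any culture, against means of 98.8 and 75.2 CPM in whole DG.

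The 4 sodium beta subunits, single-span proteins that tether the pores and also act in cell adhesion, were all lower. Scn2b had 0, 1, 0 and 1 counts in the cultures and 4969 and 4995 counts in whole DG, 312 CPM on average. Whole DG exceeded the cultures by a ratio of 6919.8 with a 95% exact counting interval of 1915 to 57147. It was thus among the abundant channel genes of the tissue and without a count in F1 and M1. Scn3b kept 11.8, 9.28, 24.0 and 17.9 CPM in the cultures against 402 and 368 CPM.

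Calcium channel pores followed the same pattern. All 8 alpha1 genes tested were lower, and the group of 10 summed to 23.6 ± 3.74 CPM (SD, n = 4) in the cultures and 1395 ± 61.3 CPM (SD, n = 2) in whole DG. Cacna1e, the R-type pore, was at 0, 0.867, 0.860 and 0 CPM in the cultures and at 488 and 496 CPM in whole DG. Its log2 difference was -10.13 ± 0.55 (SE), adjusted p = 1.16e-06 with edgeR. Cacna1i, a low-threshold T-type pore, had 0 counts in every culture and 1582 and 1353 counts in whole DG, at least 1359-fold lower (floor of 3 counts summed across the 4 cultures). A second T-type pore was different in level. Cacna1h was at 20.7, 22.02, 19.3 and 15.6 CPM in the cultures and at 196 and 263 CPM in whole DG. It was also lower (log2 difference -3.56 ± 0.18 SE, adjusted p = 7.31e-07 with edgeR), yet it gave most of the alpha1 counts of the bulk cultures. The difference was -1.38 with length and GC trends removed, and still called. The pores of the L, N and P/Q types, Cacna1c, Cacna1b and Cacna1a, averaged 1.78, 0.491 and 1.01 CPM in the cultures against 201, 127 and 136 CPM.

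The subunits that accompany these pores had median log2 differences of -4.00 (alpha2delta) and -5.30 (beta), against -7.86 for the pores; this difference was not tested. Among alpha2delta subunits, extracellular proteins that raise channel number at the membrane, 4 of 4 were lower. Cacna2d1 was at 11.7, 13.9, 15.3 and 7.12 CPM in the cultures and 263 and 247 CPM in whole DG, and Cacna2d3 at 3.72, 8.15, 7.93 and 7.71 CPM against 91.5 and 73.0 CPM. All 4 cytoplasmic beta subunits were lower too, and Cacnb2 kept the most. Its levels were 10.6, 8.93, 12.9 and 11.2 CPM in the cultures and 65.9 and 62.2 CPM in whole DG (log2 difference -2.55 ± 0.17 SE, adjusted p = 3.45e-06 with edgeR), and its difference was -1.56 with the length trend removed. Cacnb3 and Cacnb1, subunits of neuronal and muscle channels, averaged 2.52 and 4.50 CPM against 222 and 137 CPM. Per kilobase the levels of Cacnb1, Cacnb2 and Cacnb3 were 0.994, 0.824 and 0.629 CPM in the cultures and 30.2, 4.84 and 55.3 CPM in whole DG, so Cacnb3 went from highest of these to lowest.

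The gamma family split. These membrane proteins are best known as partners of AMPA-type glutamate receptors, and 5 of the 7 tested were lower. Cacng2, also called stargazin, had 0 counts in every culture against 79.1 and 83.0 CPM in whole DG, at least 1199.6-fold lower. Cacng8 was at 1.90, 1.91, 1.82 and 1.46 CPM in the cultures and at 94.0 and 106 CPM in whole DG. Cacng3, with 3 counts in the cultures, all in M1, averaged 69.2 CPM in whole DG. In contrast Cacng5 was at 57.3, 110.2, 103 and 94.0 CPM in the cultures and at 9.75 and 10.8 CPM in whole DG. Every culture lay above both whole DG libraries, and the log2 difference was 3.15 ± 0.30 (SE), adjusted p = 2.42e-05 with edgeR. Cacng5 lies on chromosome 11 (GRCm38 107874605 to 107915055, minus strand) and overlaps no other annotated gene. It made up nearly all of the gamma sum of the cultures, 98.0 ± 24.1 CPM (SD, n = 4).

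The voltage-gated potassium pores were the largest group. Of 40 genes 35 were tested, 32 were lower, none was higher and 3 were not called, with a median log2 difference of -4.86. Kcnq3, a subunit of the M-current that restrains repeated firing, was well expressed in whole DG and nearly absent from the cultures. Kcnq3 had 3 counts in all, in M1, against 257 and 238 CPM, a ratio of whole DG over cultures of 3658 with a 95% exact counting interval of 1251 to 17742. Kcns2, a silent subunit, had 0 counts in the cultures and 46.3 and 43.2 CPM in whole DG, at least 661-fold lower.

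In 4 pores of this group the fall left more than 10 CPM in every culture. Kcnc1, a fast delayed rectifier of the Kv3 class, was at 45.5, 57.3, 49.4 and 46.4 CPM in the cultures and at 224 and 232 CPM in whole DG. Its spread among cultures was the second smallest of the 26 channel genes at 5 CPM or more there, with a coefficient of variation of 10.8%. Its log2 difference was -2.20 ± 0.13 (SE), adjusted p = 1.72e-06 with edgeR, and shrank to -0.54 when trends on length and GC content were removed. Kcnd3, an A-type pore, was at 33.0, 35.9, 58.0 and 48.0 CPM against 179.8 and 173 CPM. Kcna2, a dendrotoxin-sensitive axonal pore, was at 22.1, 42.7, 67.2 and 19.02 CPM against 208 and 166 CPM. Kcng1, a silent subunit, was the steadiest of all, at 17.3, 15.4, 16.4 and 18.9 CPM in the cultures and 89.2 and 96.2 CPM in whole DG. All 4 were lower without overlap, and with length and GC trends removed the log2 differences of Kcnd3, Kcna2 and Kcng1 went from -2.01, -2.31 and -2.44 to -1.37, -1.57 and -1.58.

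Kcnv1, a further silent subunit, was not called. It was at 27.1, 57.4, 30.6 and 16.8 CPM in the cultures and at 54.4 and 49.7 CPM in whole DG, and the groups overlapped through F2 alone. Its log2 difference was -0.66 ± 0.40 (SE), adjusted p = 0.160 with edgeR, and it became -1.06 with adjusted p = 0.0045 without F2. Per kilobase Kcnv1 was the most abundant voltage-gated pore gene of the bulk cultures at 7.19 CPM. Kcnc1 followed at 5.25, Kcnd3 at 4.56 and Kcng1 at 3.77. This order did not hold in the single cells described below. In whole DG the order was Kcnc1 at 24.1, Kcng1 at 20.6, Kcnd3 at 18.4 and Kcnv1 at 11.3.

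Among potassium pores opened by calcium or sodium, 7 of 8 were lower and 1 was higher. Kcnma1, the large-conductance BK pore, was at 34.4, 16.2, 50.4 and 26.3 CPM in the cultures and at 89.2 and 75.4 CPM in whole DG. The groups did not overlap and the log2 difference was -1.37 ± 0.36 (SE), adjusted p = 0.0079 with edgeR. The call was lost without whole DG F1 (adjusted p = 0.0577) and with the length trend removed, where the difference was -0.11, or -0.20 with GC as well. A test for a fold above 2 did not call it either (adjusted p = 0.111 with edgeR). Kcnt2, a sodium-activated pore, averaged 0.419 CPM against 47.2 CPM. Kcnn4, the intermediate-conductance channel known from dividing and blood cells, was the exception. It had 8, 8, 13 and 9 counts in F1, F2, M1 and M2 and 1 and 0 counts in whole DG F1 and M2, a ratio of 27.4 with a 95% exact counting interval of 4.62 to 1109, adjusted p = 0.00197 with edgeR. Its culture level was at most 1.24 CPM.

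Of the 12 inward rectifier genes tested 10 were lower and 2 were higher. The G-protein-gated subunits Kcnj3, Kcnj6 and Kcnj9, which slow neurons after transmitter binding, were nearly absent from the cultures. Kcnj3 was at 0, 0, 0.478 and 0 CPM in F1, F2, M1 and M2 and at 203 and 175 CPM in whole DG. Kcnj9 was at 0, 0.694, 0 and 0 CPM against 141 and 172 CPM, and Kcnj6, with 2 counts in F2, averaged 63.9 CPM in whole DG. Kcnj16, a Kir5.1 subunit that joins Kcnj10 in glia and kidney, stood out in the cultures. It was at 108, 118, 154 and 104 CPM in the cultures and at 22.5 and 17.3 CPM in whole DG, with no overlap. Its log2 difference was 2.60 ± 0.22 (SE), adjusted p = 1.37e-05 with edgeR, and it lies on chromosome 11 (GRCm38 110968033 to 111027968, plus strand). Kcnj10, the Kir4.1 subunit of mature astrocytes, went the other way, at 3.47, 4.33, 5.64 and 6.15 CPM in the cultures and 143 and 123 CPM in whole DG. Per kilobase the pair stood at 30.8 and 0.906 CPM in the bulk cultures and at 5.06 and 24.6 CPM in whole DG, so their order was turned. The gap between them was smaller in the single cells described below.

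Kcnj15, the Kir4.2 subunit, was called higher on uneven values. It was at 0.579, 8.24, 0.191 and 4.88 CPM in F1, F2, M1 and M2 and at 0.258 and 0.122 CPM in whole DG. M1 lay within the whole DG range, so the groups overlapped. The log2 difference was 4.13 ± 1.54 (SE), adjusted p = 0.0371 with edgeR, and the call was lost without whole DG F1 (adjusted p = 0.123) and without whole DG M2 (adjusted p = 0.172). It was also lost with no filter (0.158), with whole DG thinned to the culture depth (0.0559) and in a test for a fold above 2 (0.0651), all adjusted p with edgeR.

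The 2-pore potassium channels, which carry leak currents, were lower in 8 of 10 tested. Kcnk1 was at 25.5, 40.4, 35.3 and 17.5 CPM in the cultures and at 111 and 113 CPM in whole DG, and Kcnk2, a mechanosensitive pore, at 18.8, 24.8, 13.9 and 9.56 CPM against 49.2 and 46.3 CPM. Both stayed well above the floor, with log2 differences of -1.92 ± 0.28 (SE) and -1.51 ± 0.32 (SE) and adjusted p = 0.000333 and 0.00249 with edgeR. Kcnk5, an acid-sensitive pore also called TASK-2 and linked to volume control, was higher. It was at 20.6, 14.04, 9.65 and 12.7 CPM in the cultures and at 0.387 and 0.426 CPM in whole DG. Among the 8 genes called higher this was the largest fitted difference, with a log2 difference of 5.10 ± 0.45 (SE), adjusted p = 1.74e-05 with edgeR and no overlap. Kcnk5 lies on chromosome 14 (GRCm38 20140057 to 20181809, minus strand) and overlaps no annotated gene. Kcnk13 was not called, since F2 stood at 26.4 CPM and F1, M1 and M2 at 6.03, 4.78 and 8.58 CPM around the whole DG values of 6.20 and 5.47 CPM.

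Among auxiliary potassium subunits 7 of 10 tested were lower, 2 were higher and 1 was not called. Kcnab2, a beta subunit of Kv1 pores, was at 698 and 679 CPM in whole DG and at 12.2, 22.7, 10.0 and 20.5 CPM in the cultures (log2 difference -5.39 ± 0.31 SE, adjusted p = 1.53e-06 with edgeR). Kcnip3 was at 108, 187, 218 and 184 CPM in the cultures and at 101 CPM in both whole DG libraries. The groups did not overlap, though F1 lay close to whole DG. The log2 difference was 0.79 ± 0.26 (SE), adjusted p = 0.0218 with edgeR, and the call was lost without whole DG F1 (adjusted p = 0.102), without whole DG M2 (adjusted p = 0.101), and in a test for a fold above 2 (adjusted p = 0.744, edgeR). Per kilobase Kcnip3 was the highest of all channel genes in the cultures, at 49.2 CPM, and ranked 17 in whole DG, at 28.5. Its relatives did not share this: Kcnip2 was at 0.248, 0, 0.764 and 0.390 CPM in the cultures and 308 and 315 CPM in whole DG, and Kcnip1 at 5.10 against 9.13 CPM was not called.

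The BK beta subunits also differed from each other. Kcnmb4, the neuronal form, was at 16.7, 19.7, 31.8 and 24.2 CPM in the cultures and at 42.7 and 46.9 CPM in whole DG. It was lower by -0.96 ± 0.24 (SE) on the log2 scale, adjusted p = 0.00679 with edgeR, and the call was lost without whole DG M2 (adjusted p = 0.0544) and in a test for a fold above 2 (adjusted p = 0.456, edgeR). Kcnmb1, the form of smooth muscle, was at 1.16, 0.433, 1.53 and 3.32 CPM against 0.323 and 0.0608 CPM. It was called higher (log2 difference 3.01 ± 0.98 SE, adjusted p = 0.0214 with edgeR), and the call was lost without whole DG M2 (adjusted p = 0.152). It lies within Kcnip1, and reads of this overlap may be split between them. The plot of levels by library shows these genes beside those that fell.

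**Figure D2:**
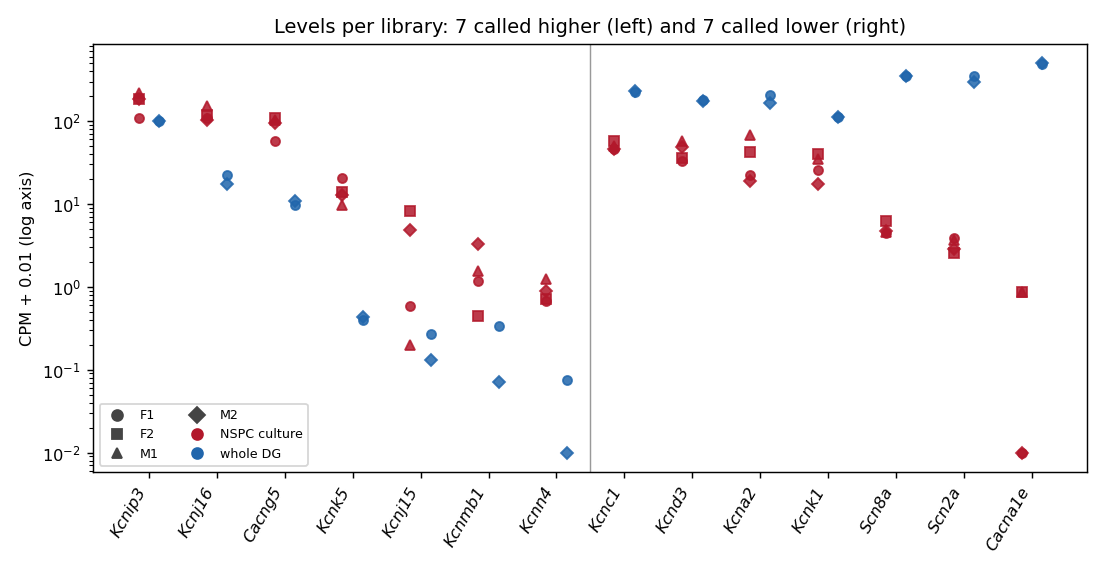
CPM plus 0.01 on a log axis in each of the 4 NSPC cultures (red) and 2 whole DG libraries (blue), with the marker shape giving the replicate name; F1 and M2 name a library in each group. Left of the line are 7 genes called higher in the cultures, where only Kcnj15 overlaps, and right of it are 7 called lower, from Kcnc1 at 45.5 to 57.3 CPM in the cultures to Cacna1e at 0 to 0.867 CPM.

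The cultures differed among themselves more for some channel genes than for others. Over the 26 channel genes at 5 CPM or more in the cultures, the coefficient of variation had a median of 33.4% and ran from 8.69% for Kcng1 to 88.3% for Kcnk13. M1 was the highest culture for 14 of these genes, F2 for 10, and F1 and M2 for 1 each. The same count over all genes was not made, so whether this is particular to channel genes was not tested. Kcna6, a Kv1 pore, spanned 0.744 CPM in F1 to 10.3 CPM in F2, and Kcnf1, a silent subunit, 1.85 CPM in M2 to 14.8 CPM in M1.

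The sex of the cultures gave no called channel gene. Of 61 tested between the 2 female and 2 male cultures, 0 passed (0.0264% of 15140 genes did), and 6 (9.84%) had an unadjusted p below 0.05, against 6.22% of all genes, with edgeR. DESeq2 called 0 channel genes and 60 genes in all (0.43%). Scn3b, one of the 6, averaged 10.5 CPM in female and 20.96 CPM in male cultures, with edgeR adjusted p = 0.746. With no filter on low counts 273 genes were called in all (0.99%) and 1 channel gene, Kcnn3, at 7, 50, 6 and 0 counts in F1, F2, M1 and M2 (adjusted p = 0.0322 with edgeR), and F2 alone held most of its counts.

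Other ion transport genes were read from the same fit. Over all genes tested 41.7% were lower and 35.6% higher, and these shares stand beside each count below. Of 51 further cation, anion and store channel genes, 30 were lower and 15 higher. The share of rises was thus below that of all genes tested. The split was more even than that of the channel families above, and the difference was not tested. The rises included Clic4, a chloride intracellular channel protein, at 865 ± 100.1 CPM (SD, n = 4) against 39.0 CPM, and Ano6, a lipid scramblase and ion channel, at 331 CPM against 29.0 CPM. Piezo1, a stretch-activated channel, and Itpr2 and Orai1 of the calcium store pathway were also higher, with log2 differences of 2.34, 2.02 and 2.27. Of 17 pumps and exchangers 16 were lower, and 1, Atp1b3, a sodium pump beta subunit, was higher at 192 against 60.7 CPM. Of 16 anchors and partners of channels, 14 were lower. Ank3, which anchors sodium channels at the axon initial segment, was at 62.7 against 477 CPM, Ank2 was not called at 584 against 666 CPM, and 1, Rest, was higher.

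The single-cell library showed which channel genes single NSPCs held. It had 14912 cells with 2001 to 8531 UMIs (unique molecular identifiers) each, in the authors' 6 clusters 0 to 5, and doublets were not removed. There is 1 library, so no test was made, the intervals are exact and cover counting error only, and the clusters were made from these same cells. Cells of clusters 4, 2 and 1 held the proliferation marker Mki67 at 541, 352 and 183 UMIs per 1000000, and those of clusters 3, 0 and 5 at 44.1, 16.9 and 11.4. Of the 132 channel genes 94 were listed and 38 were not, and those 38 averaged at most 1.77 CPM in the bulk cultures. The 94 genes held 54566 UMIs, or 874 UMI CPM, meaning UMIs per 1000000 UMIs (95% interval 867 to 882). As a guide to the background level of neuronal RNA, Snap25 and Rbfox3 had a UMI in 0.751% and 0.630% of cells and Gad1 in 1.08%. Of the 94 channel genes 30 were in a larger share than Gad1. The same count over all listed genes was not made, so 30 cannot be set against a background share. No cell type lacking channel genes was named in the library, so free RNA was not measured.

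Kcnc1 had the most UMIs of the channel genes. It had 17978 UMIs, 32.9% of all channel UMIs, at 288 UMI CPM (95% interval 284 to 292), and 65.0% of cells held one (95% Clopper-Pearson interval 64.2% to 65.7%). Its level by cluster was 341, 256, 251, 303, 288 and 296 UMI CPM in clusters 0 to 5. The ratio from highest to lowest was 1.36 (95% interval 1.30 to 1.42), and 1.06 as a share of cells. Intervals of such ratios do not allow for the choice of the clusters from the same counts. Kcnc1 was the highest of the channel genes in every cluster. Kcnmb4 was second with 104 UMI CPM and 34.0% of cells, and Kcnd3 had 46.3 UMI CPM and 17.2% and Kcnip3 had 40.7 UMI CPM and 14.8%. The 5 genes with the most UMIs gave 60.6% of the channel UMIs. Kcna2, Kcnj16 and Kcnma1 were at 40.1, 29.2 and 25.7 UMI CPM. Kcnv1, the highest voltage-gated pore gene per kilobase in the bulk cultures, was at 10.3 UMI CPM, with a UMI in 4.10% of cells. It was thus below Kcnc1, Kcnd3 and Kcna2. Kcnj10 was at 13.9 UMI CPM, and 5.38% of cells held a UMI of it, against 11.2% for Kcnj16.

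Summed over the 94 genes, cluster 0 held 1060 UMI CPM (95% interval 1044 to 1077) and cluster 5 held 756 (731 to 781), with clusters 3, 2, 4 and 1 at 932, 812, 807 and 766. The order began with cluster 0 and ended with cluster 5 without Kcnc1 too, at 719 and 460.1 UMI CPM. Of 20 channel genes with 500 UMIs or more, 12 were highest in cluster 0 and 9 lowest in cluster 5. The same counts were not made over all listed genes, so whether this order is particular to channel genes was not tested. The ratio of highest to lowest cluster had a median of 2.17 over the 20 channel genes. It ran from 1.21 for Cacna2d1 to 4.75 for Cacna2d3. Kcnmb4 was at 119 UMI CPM in cluster 0 and 54.7 in cluster 5, and Kcna2 was at 63.4 in cluster 0 and 18.6 in cluster 5. Cacng4 broke the order, with its highest level, 27.9, in cluster 2 and 12.6 in cluster 0, and Kcnk2 was highest in cluster 5, at 16.4. With each cell thinned to 2000 UMIs, which left out 0 cells, the ratios of Kcnmb4 and Kcnip3 were 2.04 and 2.08 against 2.18 and 2.16 unthinned. That of Kcnc1 was 1.38 against 1.36. That of Kcnd3 was 1.33 against 1.52, below its unthinned 95% interval of 1.35 to 1.71.

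**Figure D3:**
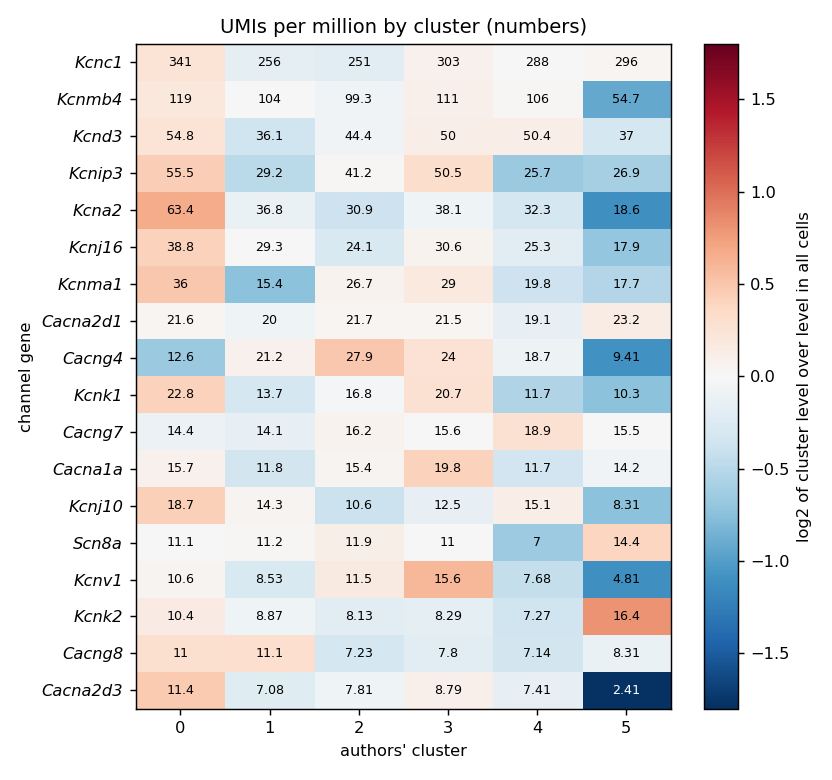
UMI CPM of 18 channel genes with 500 or more UMIs (rows) in the authors' clusters 0 to 5 (columns), printed in each cell and coloured by the log2 ratio to the level in all cells. Cacna2d3 spans the widest range, from 11.4 UMI CPM in cluster 0 to 2.41 in cluster 5, and Cacna2d1 the narrowest.

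The single-cell and bulk levels of the channel genes were ordered alike only in part. Across the 94 genes Spearman's rho between mean culture CPM and UMI CPM was 0.742, a description across genes, which are not independent replicates and which differ here in library method and cultures. Of 49 genes with 50 UMIs or more, 9 were over 4-fold higher in UMI CPM in the single cells and 10 over 4-fold lower. Cacng7 had 15.6 UMI CPM and 0.381 CPM in the bulk cultures, and Cacna1a 14.8 and 1.01. Cacna1h had 5.29 UMI CPM and 19.4 CPM in the bulk cultures, so Cacna1a and Cacna1h changed order between the assays. In the other direction Cacng5 had 4.33 UMI CPM and 91.2 CPM, and Kcnk5 1.46 and 14.2. Full-length reads scale with transcript length and 3′ UMIs do not, so the levels are not on one scale. Spearman's rho of this difference with transcript GC content was 0.126 over the 49 genes. Of the 8 genes called higher in the bulk cultures, Kcnip3 and Kcnj16 were also among the most abundant in the single cells. Both were still over 4-fold lower in UMI CPM than in bulk CPM. Cacng5 had a UMI in 1.74% of cells. Kcnk5, Kcnn4, Kcnj15 and Kcnmb1 had one in 0.604%, 0.349%, 0.255% and 0.174%, smaller shares than that of Gad1.

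**Figure D4:**
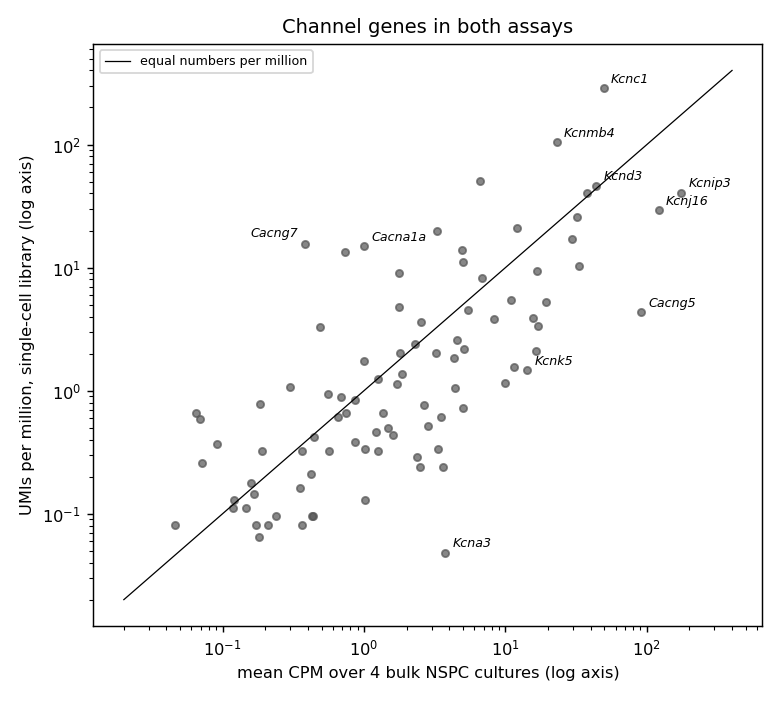
Mean CPM over the 4 bulk NSPC cultures (horizontal, log axis) and UMI CPM in the single-cell library (vertical, log axis) for the listed channel genes with counts in both. The line marks equal values; Kcnc1 and Kcnmb4 lie above it, and Cacng5, Kcnip3 and Kcnj16 below it.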

How the data were processed

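RNA was measured in 4 NSPC culture libraries, 2 whole DG libraries and 1 single-cell library. The bulk values are gene counts deposited by the authors, made with HISAT2 2.0.6 and with featureCounts of Subread after CASAVA 1.8.2, per the submitters' processing notes. Those notes name the build GRCh38, while the gene symbols are those of the mouse. No source used here says whether counting used strand, and 60 of the 109 tested channel genes overlap another annotated gene. The single-cell values were deposited by the authors as the natural log of 1 plus UMIs per 10000 of each cell, as read from the values. The notes name Cell Ranger 3.1.0 and Seurat 3.1.0, and a labels' protocol names 3.0.2 and 3.0.1. No source used here gives the cell filter.

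The main test was that of edgeR 4.0.16 under R 4.3.3 (TMM factors, filterByExpr, quasi-likelihood test, Benjamini-Hochberg adjusted p below 0.05 over all genes tested). A design with 4 cultures and 2 whole DG was fitted with the group only, and female against male in the 4 cultures. DESeq2 1.42.0 was an alternative, and limma 3.58.1 served within edgeR. The scripts were tested on simulated data. UMIs were recovered from the logs, with 100% of channel gene entries within 0.01 of a whole number. Intervals are at 95% and cover counting error only, as does the floor of 3 counts. Positions and exon lengths come from GENCODE M21 and promoters from RefSeq.

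The members and lists were chosen with earlier results of these data known. The rule named, among channel genes, the 2 most abundant of each group, all called higher, all at 10 CPM or more in the cultures, the 10 largest called falls among those at 20 CPM or more in whole DG, the 5 with most UMIs, and any called between sexes. Kcnj10, Scn1a, Scn3a, Kcna6, Kcnf1, Kcnh6, Kcnn3, Kcnip1, Kcnj6, Kcnt2, Cacna1a, Cacna1b, Cacna1c, Cacng4, Cacng7 and some related genes were also named after their values were seen, where the rule did not take them. Alternatives covered scaling, test, filter, each library, replicate block, length, depth, fold and overlap; removing length and GC trends together was chosen after seeing the data. A few channel genes are left unnamed and not reported here; counts over all channel genes include them.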

Additional observations from a re-analysis of the deposited data

Results flagged for a closer look

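In 8 of 40 named channel genes 1 culture stood apart from the other 3 by Dixon's ratio of its gap to the whole range, above the 95% critical value. Chance flags about 1 in 20 groups, a rate that does not apply to genes near 0 counts. Cacnb1 was at 7.11 CPM in F2 and 3.47 to 3.73 CPM in the others (0.930). Scn8a was at 6.24 CPM in F2 and 4.46 to 4.68 CPM in the others (0.877). Cacna2d3 was lowest in F1, at 3.72 CPM against 7.71 to 8.15 CPM (0.900). The other 5 had a few counts in a single culture, which makes the ratio 1 by construction. Kcnj6 and Kcnj9 were seen only in F2, at 0.173 and 0.694 CPM, and Cacng3, Kcnq3 and Kcnj3 only in M1, at 0.287, 0.287 and 0.478 CPM.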

How the results depend on the processing

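The count of 8 channel genes higher in the cultures became 4 under a stricter filter on low counts (78 tested), 4 in the F1 and M2 libraries with the replicate block, 5 when testing for a fold above 2, and 5 of 49 among genes that overlap no other gene. Leaving out 1 library gave 5 to 8. The count of 95 lower became 40 of 49 among genes without overlap, 98 with the replicate block, and 87 to 97 leaving out 1 library. The median log2 difference of -5.20 was -5.02 with upper quartile factors, -5.41 with DESeq2, -4.32 without a filter, -6.29 with the stricter one, -5.38 with the replicate block, -4.95 with the length trend removed and -4.49 with length and GC trends removed. Leaving out 1 library gave -5.44 to -4.88. The all-gene median moved by -0.10 with DESeq2 factors and by 0.18 with upper quartile factors. The labels share only a number across the groups, and F1 minus M2 correlated at -0.000137 between cultures and tissue over 17463 genes. The sex count of 0 became 1 without a filter, where 273 genes were called in all. As shares of cells, the cluster ratios of Kcnc1, Kcnmb4 and Kcnip3 were 1.06, 1.71 and 1.46, and thinning gave 1.33 for Kcnd3 against 1.52 unthinned. The cause of these moves was not tested. Over 40 named genes, 611 of 629 values kept their call, 16 lost it, 2 gained it and 0 reversed. With the replicate block Kcnip3 (adjusted p = 0.0558, edgeR) lost its call and Kcnv1 (adjusted p = 0.00165, edgeR) gained one.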
